A study of Homo sapiens with 96 samples.

Results

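The interferon-stimulated genes measured here are 44 genes chosen by name, of which 43 had at least 1 probe set annotated to them alone, among 19775 such genes on the HG-U133 Plus 2.0 array. STAT2 was not analysed here. The genes were chosen with earlier results of these data known. A share of all genes set beside a count of members is therefore a description and not an independent test. The 96 arrays came from 4 human B-lymphoma cell lines, 24 arrays each and harvested after 4 h, the mantle cell lymphoma (MCL) lines Z138 and REC1 and the diffuse large B-cell lymphoma (DLBCL) lines OciLy18 and SUDHL4. Cells of every line were treated with whole anti-IgM, the F(ab')2-fragment of anti-IgM, anti-IgG, the murine anti-CD20 antibody LT20, the anti-CD20 antibody rituximab or a human IgG isotype antibody, or were left untreated, and REC1 was also treated with the F(ab')2-fragment of rituximab. Anti-IgM and anti-IgG bind the B cell receptor (BCR). The labels give 10 µg/ml for every antibody and 0 for untreated cells, while the methods of the study give the anti-IgM fragment at a lower, equimolar dose. Each treated group held 3 arrays, and untreated cells had 6 arrays in SUDHL4, OciLy18 and Z138 and 3 in REC1. SUDHL4 carries surface IgG and no IgM. Whether replicates were independent cultures is not stated, so that p-values measure the spread between these arrays only.

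Values are MAS5 signals, the linear probe set intensities of the authors' software, which come without detection calls, and a signal below 100 is treated as dim. All 5 B cell markers measured were above a signal of 100 in untreated REC1, OciLy18 and SUDHL4 and 4 of 5 in Z138, and the 2 mantle cell lymphoma markers CCND1 and SOX11 were above it only in REC1 and Z138. The 5 NK cell and the 4 monocyte markers stayed below 100 in every untreated line. Of the 5 T cell markers, CD3D averaged 1353 and CD3G 125 in untreated REC1, where CD3E, CD2 and CD8A were below 100. The markers of plasmacytoid dendritic cells, known as strong producers of interferon, passed 100 for 1 gene of 4 in each line, TCF4, which B cells express too.

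Type I interferons are secreted when a cell senses viral nucleic acid. Type I interferon acts through a receptor on the cell surface, the kinases JAK1 and TYK2 and a transcription factor complex with IRF9 that binds the interferon-stimulated response element, whereas type II interferon acts at gamma-activated sites. The genes switched on in this way encode sensors of viral RNA and DNA, enzymes that stop translation or degrade RNA, proteins that hold virions or block their entry, and the immunoproteasome and peptide transporter of antigen presentation. B cells keep many of them on at a low level without infection.

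Promoter windows of RefSeq (GRCh38.p14, 250 bases before to 50 after the gene start) were found for 34 of the 44 members, and TRIM22, MX2, OAS2, OASL, IFIT2, IFITM2, IRF2, IRF7, USP18 and GBP2 had none in the table used. The core of the interferon-stimulated response element was searched on both strands as GAAA, any 2 bases and GAAA, and was present in 20 of the 34 members (58.8%), against 4.38% of all 27305 genes with a window. A gamma-activated site, TTCNNNGAA, was present in 11 members (32.4%), against 9.38% of all genes. An ETS-IRF composite element, GGAA, any 2 bases and GAAA, whose letters differ from the response element core at 1 place, was present in 7 members (20.6%), against 3.47% of all genes, and an NF-kB site in 7 members (20.6%), against 7.09%. A match is a description of letters and shows no binding. The stretches from 200 bases before to 20 bases after the start are shown for SAMD9 (chr7:93117960-93118179, minus strand), EIF2AK2 (chr2:37156961-37157180, minus strand) and BST2 (chr19:17405611-17405830, minus strand), which fell in REC1, and for OAS1 (chr12:112906762-112906981, plus strand), which rose in SUDHL4 and OciLy18. Capitals mark the response element core in SAMD9, EIF2AK2 and BST2 and the composite element in OAS1.
SAMD9: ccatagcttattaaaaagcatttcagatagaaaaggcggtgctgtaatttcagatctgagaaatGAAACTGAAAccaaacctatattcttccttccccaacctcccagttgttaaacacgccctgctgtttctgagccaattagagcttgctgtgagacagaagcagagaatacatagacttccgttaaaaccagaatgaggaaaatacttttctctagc
EIF2AK2: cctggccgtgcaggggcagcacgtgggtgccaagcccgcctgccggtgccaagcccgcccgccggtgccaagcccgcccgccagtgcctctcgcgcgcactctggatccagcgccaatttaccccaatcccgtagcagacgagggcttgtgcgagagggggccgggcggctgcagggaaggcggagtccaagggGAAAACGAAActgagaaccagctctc
BST2: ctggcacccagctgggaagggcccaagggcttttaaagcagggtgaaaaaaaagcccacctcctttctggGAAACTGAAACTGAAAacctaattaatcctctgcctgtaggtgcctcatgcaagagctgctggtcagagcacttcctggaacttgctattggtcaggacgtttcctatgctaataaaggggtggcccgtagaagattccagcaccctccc
OAS1: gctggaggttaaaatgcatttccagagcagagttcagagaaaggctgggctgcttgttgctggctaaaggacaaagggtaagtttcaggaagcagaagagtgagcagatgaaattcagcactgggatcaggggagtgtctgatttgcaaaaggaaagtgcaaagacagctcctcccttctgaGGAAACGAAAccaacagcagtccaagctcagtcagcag
The core began 136 bases before the start in SAMD9 and 6 bases before it in EIF2AK2, and BST2 held a pair of overlapping cores that began 130 and 124 bases before the start. OAS1 held no match to the response element core in its window, and its composite element began 18 bases before the start. Among other members that fell in REC1, MX1, PSMB8 and IFI6 held the core, whereas SAMD9L, SP110, SP100 and PSMB9 did not. PSMB8 and SP110 held the composite element too, so that it was not particular to OAS1.

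In untreated cells the members stood at very different levels in the 4 lines, and SUDHL4 had the fewest above a signal of 100. A mean above 100 was reached by 24 of the 43 members in REC1, 19 in Z138, 17 in OciLy18 and 12 in SUDHL4. The share of all genes above 100 in untreated cells is not given. In any group of a line, treated or not, 24, 21, 22 and 16 members passed 100 in the same order of lines. Of all 19775 genes, 7804, 7603, 7780 and 7177 did so, and SUDHL4 was lowest there too. Signals are compared within a gene only, since probe sets differ in brightness. Of 26 members tested in untreated cells, 13 were higher and 2 lower in REC1 than in SUDHL4 in limma (adjusted p below 0.05, more than 2-fold, mean above 100), against 15.9% and 10.5% of all genes tested. In REC1 minus OciLy18, 7 were higher and 3 lower (13.2% and 11.1% of all genes), and in REC1 minus Z138, 8 were higher and 2 lower (13.7% and 11.2%). In Z138 minus SUDHL4, 7 were higher and 4 lower (12% and 9.59% of all genes), in Z138 minus OciLy18, 4 and 3 (7.53% and 8.73%), and in OciLy18 minus SUDHL4, 8 and 5 (11.5% and 8.86%). The median log2 difference over the tested members was 1.17 in REC1 minus SUDHL4, 0.95 in Z138 minus SUDHL4 and 0.86 in OciLy18 minus SUDHL4, where the medians over all genes were 0.14, 0.05 and 0.06. Each disease was represented by 2 lines only, and the diseases were not compared.

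**Figure D1:**
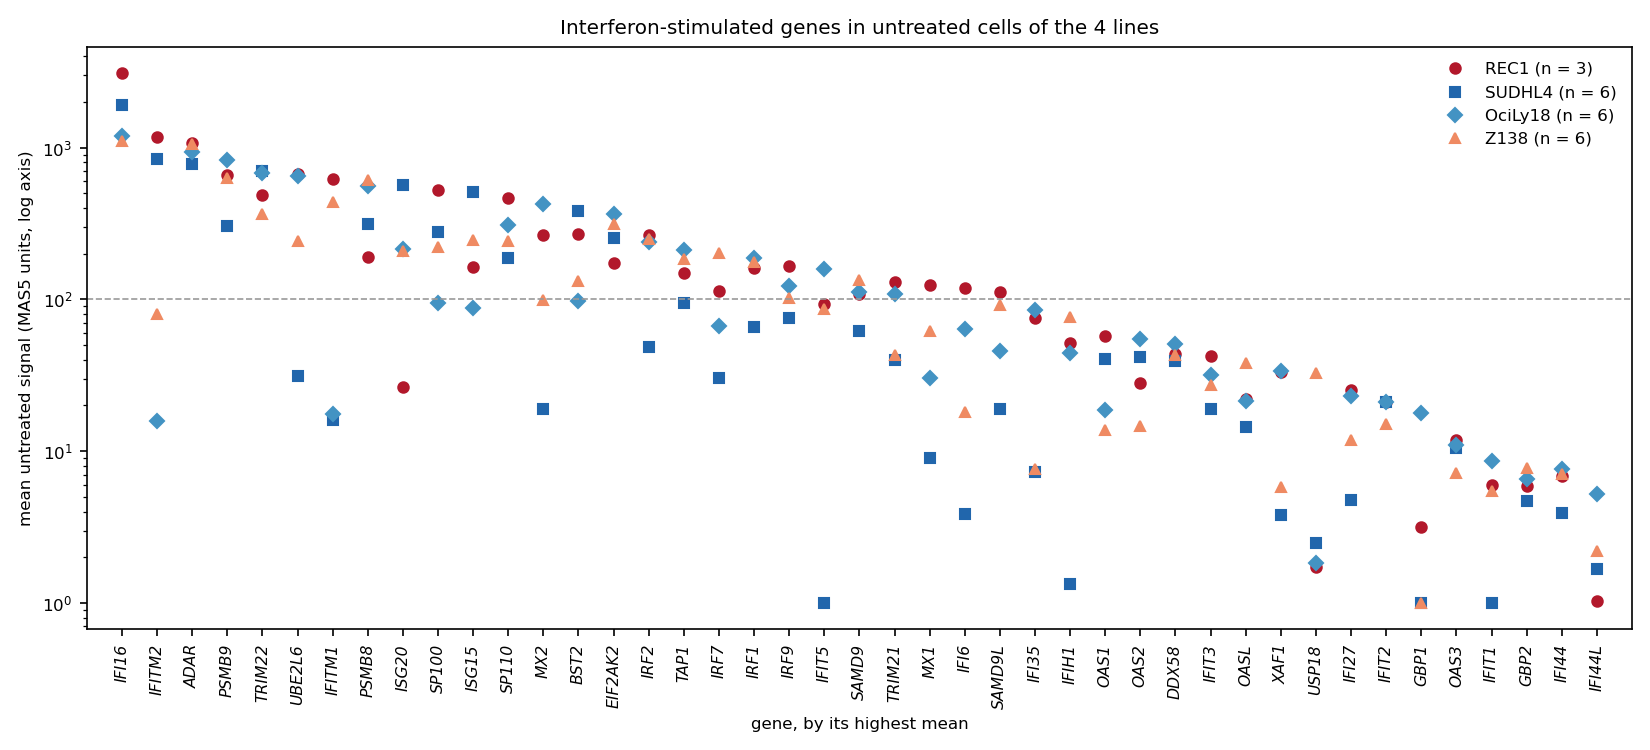
Mean signal in untreated cells (vertical log axis, MAS5 units; means below 1 drawn at 1) of each of 43 interferon-stimulated genes (horizontal axis), with 1 symbol per line and a dashed line at 100. For IFIT5, MX1, MX2, IFI6 and UBE2L6 the SUDHL4 squares lie at or below 31.1, while the REC1 circles lie between 93.0 and 672.

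The 8 members with the largest called gaps between lines were IFITM1, IFITM2, IFIT5, IFI6, MX1, MX2, UBE2L6 and ISG20. IFITM2, of the transmembrane proteins that block virus entry at the membrane, read 1211, 1125 and 1212 in untreated REC1, and its lowest, median and highest arrays were 57.5, 80.0 and 107 in Z138, 2.86, 15.1 and 30.4 in OciLy18 and 746, 823 and 946 in SUDHL4. Its neighbour IFITM1 read 619, 610 and 622 in REC1, while the corresponding arrays were 302, 433 and 579 in Z138, 14.2, 17.7 and 22.0 in OciLy18 and 5.08, 17.3 and 22.9 in SUDHL4. The arrays of REC1 and SUDHL4 thus overlapped with none of OciLy18 for IFITM2, and those of REC1 and Z138 with none of the DLBCL lines for IFITM1. IFITM1 and IFITM2 are near-identical over much of their sequence, and a probe set annotated to both was left out.

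IFIT5, which binds viral RNA, had 87.6, 88.2 and 103 in REC1, lowest, median and highest arrays of 69.6, 89.3 and 95.6 in Z138 and 144, 160 and 169 in OciLy18, and no array above 2.09 in SUDHL4. IFI6, an inhibitor of apoptosis at the mitochondrion, had 117, 108 and 132 in REC1, a median of 17.6 in Z138, 63.3 in OciLy18 and 1.97 in SUDHL4. For both genes every SUDHL4 array lay below every array of the other lines, and a fold against such a signal depends on the floor of the scale.

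MX1 and MX2 encode dynamin-like GTPases that trap viral particles and lie next to each other on chromosome 21. MX1 had 91.8, 136 and 147 in REC1, with medians of 63.3 in Z138, 30.5 in OciLy18 and 10.3 in SUDHL4. MX2 had 242, 262 and 297 in REC1, with lowest, median and highest arrays of 43.6, 97.2 and 151 in Z138, 354, 436 and 475 in OciLy18 and 9.56, 22.1 and 24.4 in SUDHL4. The order of the lines therefore differed between the neighbours, REC1 being highest for MX1 and OciLy18 for MX2. UBE2L6, the enzyme that passes the ubiquitin-like protein ISG15 on to its targets, had 640, 667 and 709 in REC1, with medians of 244 in Z138, 644 in OciLy18 and 28.2 in SUDHL4.

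SUDHL4 did not stand lowest throughout. ISG20, an exonuclease that degrades viral RNA, had 18.8, 26.4 and 34.4 in REC1, with lowest, median and highest arrays of 178, 200.3 and 257 in Z138, 196, 219 and 222 in OciLy18 and 501, 557 and 641 in SUDHL4. ISG15 likewise averaged 164 ± 14.9 in REC1 (SD, n = 3), 244 ± 18.5 in Z138, 87.7 ± 5.76 in OciLy18 and 509 ± 130 in SUDHL4 (SD, n = 6 each), with OciLy18 lowest and SUDHL4 highest. The probe sets of SP100 and SP110, components of nuclear bodies, did not all pass the test together between lines, and for SP100 in REC1 minus SUDHL4 the probe set used gave a log2 difference of 0.93 and another probe set one of -1.79. Members that stayed below a mean of 100 in every group of all 4 lines numbered 15 and included the RNA sensors IFIH1 and DDX58 (now RIGI), IFIT1, IFIT2, IFIT3, IFI44, IFI44L, OAS3, OASL, XAF1, USP18, GBP1 and GBP2.

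REC1 had the most members called after antibody treatment, and every member called in REC1 was lower than in untreated cells. The 24 tested members were those above 100 in untreated REC1, and the other 19 stayed below 100 in every REC1 group. Of the 24, 10 fell with anti-IgM, 12 with the anti-IgM fragment, 10 with anti-IgG, 7 with LT20, 2 with rituximab, 3 with the rituximab fragment and 0 with the isotype antibody, where 6 had an unadjusted p below 0.05 in limma, as did 28.9% of all genes. Bulk RNA cannot tell fewer expressing cells from less RNA per cell. Among all genes tested, the shares that fell were 8.01%, 8.53%, 7.23%, 2.96%, 0.718%, 1.44% and 0.0897% in the same order. The shares of all genes that rose were 4.96%, 6.02%, 3.97%, 2.51%, 1.19%, 1.7% and 0.615%, and no tested member was called higher in any of the 7 comparisons. Some of the 24, among them SAMD9, SAMD9L and MX1, passed 100 in untreated cells alone, so that for them only a fall could be called. The shares of all genes that rose include genes that passed 100 through treated groups alone. A change of an untested member could not be called, and such dim signals moved both ways. GBP2 read 34.7, 48.9 and 49.7 with anti-IgM, against 5.21, 5.07 and 7.53 in untreated cells. IFIH1 read 17.9, 24.5 and 18.9 with anti-IgM, against 51.1, 49.7 and 53.8 in untreated cells. The median log2 change of the tested members was -0.92 with anti-IgM, -1.004 with its fragment, -0.82 with anti-IgG, -0.61 with LT20, -0.39 with rituximab, -0.45 with its fragment and -0.19 with the isotype antibody, while the median over all genes lay between -0.05 and -0.02. All 7 comparisons share the same 3 untreated arrays. With the isotype antibody, 5 members had an adjusted p below 0.05 in limma without passing 2-fold, at a limit that 14.8% of all genes passed, among them SAMD9L (log2 change -0.98 ± 0.21, SE) and TRIM22 (-0.61 ± 0.14).

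**Figure D2:**
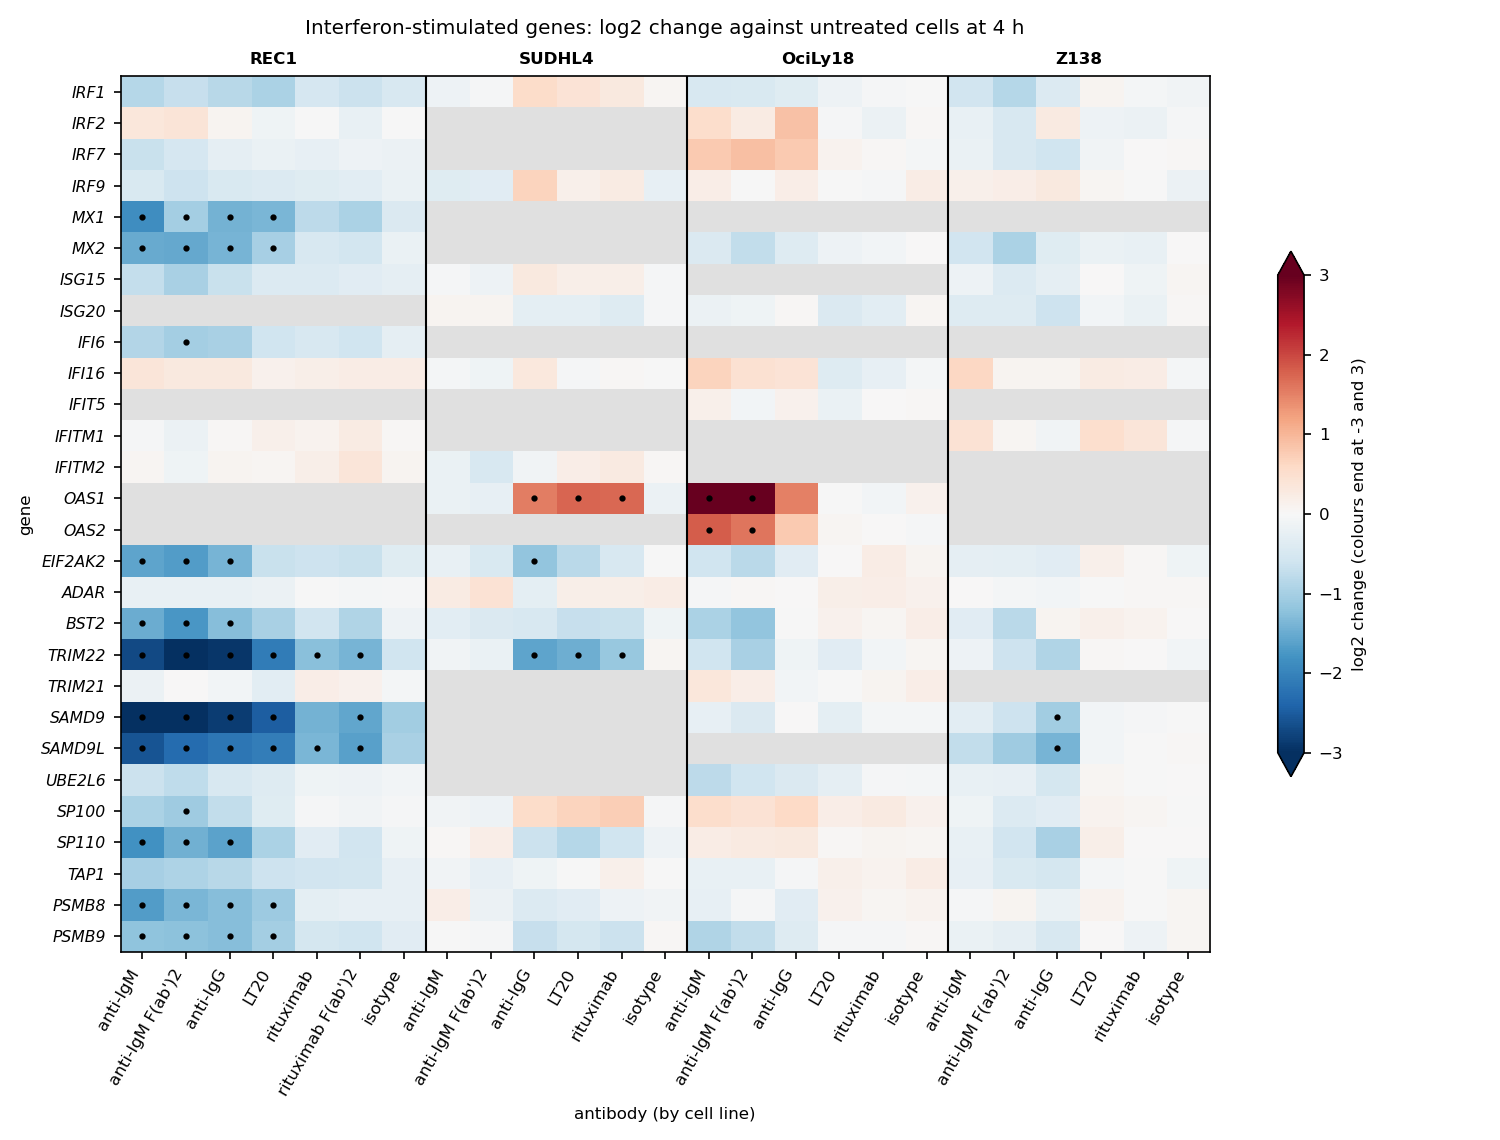
Log2 change against untreated cells (colour, blue lower and red higher, ending at -3 and 3) of the 28 interferon-stimulated genes tested in at least 1 line (rows) for each antibody in each line (columns, 25 comparisons). Black dots mark members that passed the limma test, 2-fold and the signal limit of 100, and grey cells were not tested. In REC1 every dot is on a blue cell, and the red cells with dots belong to OAS1 and OAS2 in SUDHL4 and OciLy18.

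TRIM22, an interferon-induced ubiquitin ligase of the tripartite motif family that restricts viruses, fell with all 6 specific antibodies. Its signal was 83.1, 74.4 and 66.6 with anti-IgM, 55.9, 56.6 and 59.2 with the anti-IgM fragment and 64.4, 69.9 and 58.7 with anti-IgG. It was 109, 101 and 136 with LT20, 207, 199 and 209 with rituximab and 203, 199 and 156 with the rituximab fragment, against 252, 360 and 365 with the isotype antibody and 527, 436 and 509 in untreated cells. All arrays of the 6 specific antibodies lay below all isotype and untreated arrays, and those of the BCR antibodies were lowest. The fold decrease was 6.57 with anti-IgM (log2 change -2.72 ± 0.14, SE, adjusted p = 1.4e-13 in limma) and 2.39 with rituximab (log2 change -1.25 ± 0.14, adjusted p = 5.93e-07).

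The neighbours SAMD9 and SAMD9L on chromosome 7, paralogues that restrict poxviruses and slow cell growth, fell with the BCR antibodies and LT20. SAMD9 read 12.6, 1.02 and 14.9 with anti-IgM, 17.4, 21.1 and 19.8 with LT20 and 62.0, 50.8 and 45.8 with the isotype antibody, against 127, 96.3 and 102 in untreated cells. Groups did not overlap, but a single anti-IgM array near the floor set much of the fold. The other antibodies gave 14.8, 10.5 and 15.1 with the anti-IgM fragment, 11.1, 15.8 and 18.9 with anti-IgG, 32.4, 44.3 and 46.4 with rituximab and 37.2, 35.4 and 36.5 with the rituximab fragment. The log2 change was -4.22 ± 0.57 (SE, adjusted p = 1.05e-06 in limma) with anti-IgM, -2.97 without that array and -2.33 with 16 added to each signal. SAMD9L read 22.1, 13.2 and 21.9 with anti-IgM, 25.6, 27.4 and 26.0 with LT20, 41.5, 46.4 and 42.1 with rituximab and 51.0, 53.8 and 66.6 with the isotype antibody, against 108, 104 and 123 in untreated cells. Every treated array was below every untreated one. The remaining groups of SAMD9L read 16.9, 23.1 and 29.1 with the anti-IgM fragment, 28.2, 24.6 and 22.0 with anti-IgG and 40.4, 38.5 and 30.4 with the rituximab fragment. The fold decrease was 6.01 with anti-IgM (adjusted p = 3.4e-10), 4.24 with LT20 (adjusted p = 3.1e-08) and 2.58 with rituximab (adjusted p = 3.57e-05), all in limma. SAMD9 also passed the test with the rituximab fragment (log2 change -1.57 ± 0.57, adjusted p = 0.0353), a call that was lost when any array of that group, or untreated replicate 2 or 3, was left out.

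**Figure D3:**
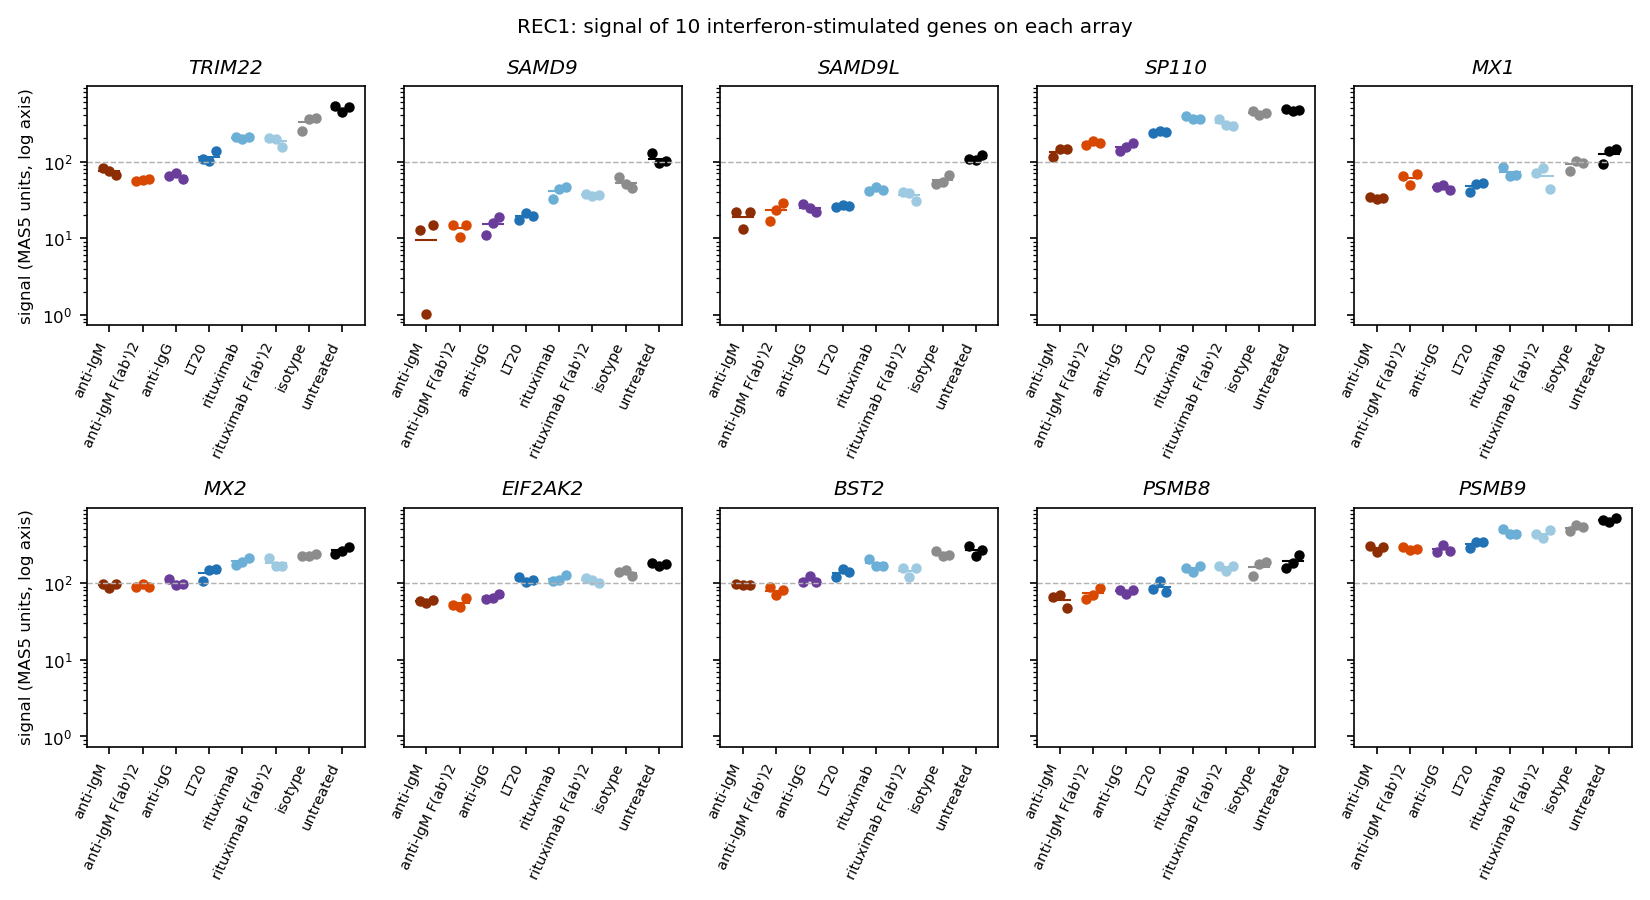
Signal on each REC1 array (points, vertical log axis, MAS5 units) of 10 interferon-stimulated genes in 8 groups of 3 arrays (horizontal axis), with group means as short lines and a dashed line at 100. TRIM22, SAMD9 and SAMD9L are lower on all treated arrays, those of the isotype antibody included, than on any untreated array. The BCR antibodies anti-IgM, its fragment and anti-IgG have the lowest means for TRIM22, SP110, EIF2AK2 and BST2.

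Both MX genes fell with anti-IgM, its fragment, anti-IgG and LT20. MX1 read 34.7, 32.6 and 33.8 with anti-IgM and 40.0, 50.5 and 52.0 with LT20, against 91.8, 136 and 147 in untreated cells, a fold decrease of 3.64 with anti-IgM (adjusted p = 7.34e-08 in limma). MX2 read 95.7, 86.6 and 96.4 with anti-IgM and 106, 146 and 152 with LT20, against 242, 262 and 297 in untreated cells, a fold decrease of 2.87 with anti-IgM (adjusted p = 1.06e-09 in limma). The treated arrays named lay below all untreated ones for both genes. In the other groups MX1 read 65.4, 49.3 and 67.8 with the anti-IgM fragment, 46.3, 49.2 and 43.0 with anti-IgG, 83.9, 64.9 and 67.4 with rituximab, 70.1, 83.3 and 43.6 with the rituximab fragment and 76.0, 102 and 96.8 with the isotype antibody. MX2 read 88.6, 97.5 and 89.4 with the anti-IgM fragment, 112, 94.5 and 98.5 with anti-IgG, 173, 188 and 215 with rituximab, 212, 169 and 164 with the rituximab fragment and 228, 226 and 240 with the isotype antibody. For both genes the rituximab groups had intermediate means, and MX1 overlapped between isotype-treated and untreated cells. The fall of MX1 with the anti-IgM fragment, 2.03-fold, and that of MX2 with LT20, 2.001-fold, stood at the limit of the call.

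Among the enzymes and membrane proteins of the antiviral response, EIF2AK2 and BST2 fell with the 3 BCR antibodies. EIF2AK2 encodes PKR, the kinase that stops translation when it meets double-stranded RNA, and read 58.9, 55.0 and 60.6 with anti-IgM, 51.7, 49.3 and 63.5 with the fragment and 62.4, 64.0 and 72.3 with anti-IgG, against 119, 102 and 108 with LT20 and 184, 164 and 174 in untreated cells. The fold decrease with anti-IgM was 2.99 (log2 change -1.58 ± 0.12, SE, adjusted p = 1.24e-10 in limma) and no array of the BCR antibodies reached an LT20 array. EIF2AK2 read 105, 109 and 129 with rituximab, 118, 108 and 101 with the rituximab fragment and 137, 146 and 124 with the isotype antibody. Of the 2 other probe sets of EIF2AK2, 1 had a log2 change of -0.97 with anti-IgM and was not called, and the other stayed below 100 in REC1 and was not tested. BST2 (tetherin), which holds budding virions at the cell surface, read 96.8, 93.8 and 95.4 with anti-IgM, 87.5, 70.2 and 81.8 with the fragment and 102, 125 and 104 with anti-IgG, against 308, 227 and 269 in untreated cells. Its decrease was 2.79-fold with anti-IgM (adjusted p = 3.08e-09) and 3.34-fold with the fragment (adjusted p = 1.64e-10) in limma, without overlap between the groups. BST2 read 119, 153 and 137 with LT20, 203, 168 and 168 with rituximab, 156, 119 and 155 with the rituximab fragment and 263, 227 and 232 with the isotype antibody. Isotype-treated and untreated arrays overlapped for BST2.

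SP110, a nuclear body protein, read 114, 146 and 144 with anti-IgM, 162, 183 and 177 with the fragment and 137, 154 and 172 with anti-IgG, against 235, 248 and 244 with LT20 and 478, 461 and 468 in untreated cells. The BCR antibodies, LT20 and untreated cells formed 3 separate ranges. SP110 read 393, 361 and 359 with rituximab, 362, 300 and 286 with the rituximab fragment and 457, 405 and 435 with the isotype antibody. The decrease with anti-IgM was 3.51-fold (log2 change -1.81 ± 0.11, SE, adjusted p = 9.89e-13 in limma). With LT20 the probe set used did not pass 2-fold (log2 change -0.95), whereas 3 other probe sets of SP110 were called lower. SP100, the partner of PML in nuclear bodies, fell with the anti-IgM fragment alone (2.10-fold, adjusted p = 1.56e-09 in limma), and IFI6 likewise (2.04-fold, adjusted p = 2.59e-05). Both stood near 2-fold with anti-IgM, at log2 changes of -0.95 and -0.89.

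The antigen presentation genes of the list lie side by side on chromosome 6, in the order PSMB8, TAP1, PSMB9. PSMB8, a catalytic subunit of the immunoproteasome, read 65.2, 69.3 and 46.7 with anti-IgM and 84.0, 107 and 77.0 with LT20, against 158, 185 and 230 in untreated cells, a fold decrease of 3.17 with anti-IgM (adjusted p = 3.05e-08 in limma). PSMB9, another such subunit, read 301, 256 and 297 with anti-IgM and 289, 340 and 343 with LT20, against 667, 619 and 695 in untreated cells, a fold decrease of 2.33 with anti-IgM (adjusted p = 1.22e-09 in limma). No treated array of these groups overlapped with the untreated ones. In the other groups PSMB8 read 62.2, 70.2 and 87.2 with the anti-IgM fragment, 81.5, 72.9 and 80.7 with anti-IgG, 159, 140 and 166 with rituximab, 165, 145 and 168 with the rituximab fragment and 125, 175 and 186 with the isotype antibody. PSMB9 read 297, 269 and 275 with the anti-IgM fragment, 252, 313 and 261 with anti-IgG, 500, 441 and 431 with rituximab, 440, 386 and 490 with the rituximab fragment and 476, 567 and 533 with the isotype antibody. Rituximab and isotype arrays of PSMB8 overlapped with the untreated ones, and those of PSMB9 did not. TAP1, a subunit of the peptide transporter, had log2 changes of -0.99, -0.93 and -0.82 with anti-IgM, its fragment and anti-IgG and was not called.

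The remaining tested members in REC1 were not called. ISG15 had log2 changes of -0.72 with anti-IgM and -0.98 with its fragment, and UBE2L6 of -0.64 and -0.76. The transcription factors IRF1, IRF7 and IRF9 lay at -0.85, -0.67 and -0.46 with anti-IgM, and IRF2, which can antagonise IRF1, at 0.33. IFITM1, IFITM2, IFI16 (a sensor of viral DNA), ADAR (which edits double-stranded RNA) and TRIM21 stayed between -0.22 and 0.37 with anti-IgM. Both IFI16 and IFITM2 had high untreated signals in REC1, IFI16 averaging 3081 ± 60.1 (SD, n = 3) and IFITM2 1183 ± 49.6.

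Antibodies were also compared directly in REC1, in 5 comparisons chosen after their values were seen. None of the 24 tested members passed 2-fold and the test in limma, where 0.871% of all genes were higher and 0.935% lower in anti-IgM minus LT20, and 0.103% and 0.115% in LT20 minus rituximab. At an unadjusted p below 0.05 there were 15, 5, 4, 12 and 2 members in anti-IgM minus LT20, anti-IgG minus anti-IgM, anti-IgM fragment minus anti-IgM, LT20 minus rituximab and rituximab fragment minus rituximab, against 36.4%, 13.2%, 22.7%, 25.3% and 5.39% of all genes. The shares of all genes called in the second of these were 0.0128% higher and 0.0897% lower, in the third 0.0256% and 0.0769%, and in the last 0 and 0. At an adjusted p below 0.05 without the 2-fold limit, 8 members were lower and 2 higher with anti-IgM than with LT20 (15.5% and 8.35% of all genes), among them EIF2AK2 (log2 difference -0.91 ± 0.12, SE, adjusted p = 5.92e-06) and SP110 (-0.86 ± 0.11, adjusted p = 2.15e-06). LT20 gave lower signals than rituximab for 9 members at that limit (4.56% of all genes), among them TRIM22 (-0.84 ± 0.14, adjusted p = 0.000498) and PSMB8 (-0.80 ± 0.18, adjusted p = 0.00513). The fragment of anti-IgM gave higher signals than whole anti-IgM for 2 members (4.01% of all genes), MX1 (0.84 ± 0.21, adjusted p = 0.0181) and SP110 (0.38 ± 0.11, adjusted p = 0.0323), the doses being unequal in the methods. For anti-IgG minus anti-IgM and for the rituximab fragment minus rituximab no member had an adjusted p below 0.05, where 2.29% and 0% of all genes did.

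With isotype-treated cells in place of untreated cells as reference, 6 members were lower with anti-IgM, 7 with its fragment, 6 with anti-IgG, 1 with LT20 and 0 with rituximab and its fragment, against 3.43%, 4.38%, 3.1%, 0.525%, 0% and 0.0769% of all genes. The members lower with all 3 BCR antibodies were TRIM22, MX2, EIF2AK2, BST2, SP110 and PSMB8. SAMD9, SAMD9L and MX1 could not be called there, since their means lay below 100 in both groups, while their log2 changes with anti-IgM were -3.18, -1.61 and -1.43. The count of members lower with LT20 against untreated cells was 4 without untreated replicate 3.

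In the other lines few members were called, and with the untreated triplicates used as reference OAS1 and OAS2 were the only ones called higher. OAS1 and OAS2 averaged below 100 in untreated cells of every line and entered the test through treated groups alone. For them only a rise could be called. Both encode enzymes that, on meeting double-stranded RNA, make the short oligoadenylates which activate RNase L, and they lie in 1 cluster with OAS3 on chromosome 12. In OciLy18, 2 of the 22 tested members rose with anti-IgM (2.37% of all genes) and 2 with its fragment (2.17%), and 0 rose with anti-IgG, LT20, rituximab or the isotype antibody (1.03%, 0.0257%, 0% and 0% of all genes), where 13, 6, 4 and 2 members had an unadjusted p below 0.05 in limma, against 38.8%, 34.1%, 18.1% and 5.3% of all genes. No member was called lower, where 1.26%, 1.97%, 0.373%, 0.0643%, 0% and 0% of all genes fell with anti-IgM, its fragment, anti-IgG, LT20, rituximab and the isotype antibody. TRIM22 came near the limit with the anti-IgM fragment (log2 change -0.98), as did PSMB9 with anti-IgM (-0.91). BST2 had log2 changes of -0.96 with anti-IgM and -1.18 with its fragment, where the means of the groups compared stayed below 100.

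These counts depended on the untreated triplicate. With untreated replicates 4 to 6 of OciLy18 as reference, 4 members were called with anti-IgM and 5 with its fragment. The share of all genes called with this reference is not given, so that these counts show only how the calls moved. IRF2 then rose by 1.29 on the log2 scale with anti-IgM and by 1.004 with its fragment, and BST2 fell by 1.28 and 1.497. TRIM22 also fell with the fragment, by 1.24. IRF2 read 406, 433 and 449 with anti-IgM, against 322, 244 and 333 in untreated replicates 1 to 3 and 160, 193 and 173 in replicates 4 to 6, so that the triplicates of untreated cells themselves did not overlap. TRIM22 read 293, 348 and 302 with the fragment, against 573, 670 and 618 in replicates 1 to 3 and 758, 704 and 764 in replicates 4 to 6. OAS1 and OAS2 were called with either triplicate.

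OAS1 read 155, 154 and 124 with anti-IgM, 142, 163 and 163 with the fragment and 52.3, 62.4 and 53.6 with anti-IgG in OciLy18, against 16.2, 18.4 and 22.3 for the lowest, median and highest of the 6 untreated arrays. The 3 BCR antibodies lay above all untreated arrays, and LT20, rituximab and the isotype antibody stayed between 15.3 and 21.2. The fold increase was 8.09 with anti-IgM (log2 change 3.02 ± 0.16, SE, adjusted p = 2.26e-13 in limma) and 8.78 with the fragment (adjusted p = 1.05e-13). With anti-IgG the log2 change of 1.51 was not called because the mean stayed below 100. OAS2 read 195, 205 and 213 with anti-IgM, 172, 179 and 179 with the fragment and 79.5, 84.1 and 99.0 with anti-IgG, against 43.9, 53.8 and 75.2 for the lowest, median and highest untreated arrays. All arrays of the BCR antibodies again lay above the untreated ones, and the fold increase was 3.50 with anti-IgM (adjusted p = 5.17e-09 in limma) and 3.02 with the fragment (adjusted p = 3.38e-08). OAS3 stayed below 100 in every group.

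**Figure D4:**
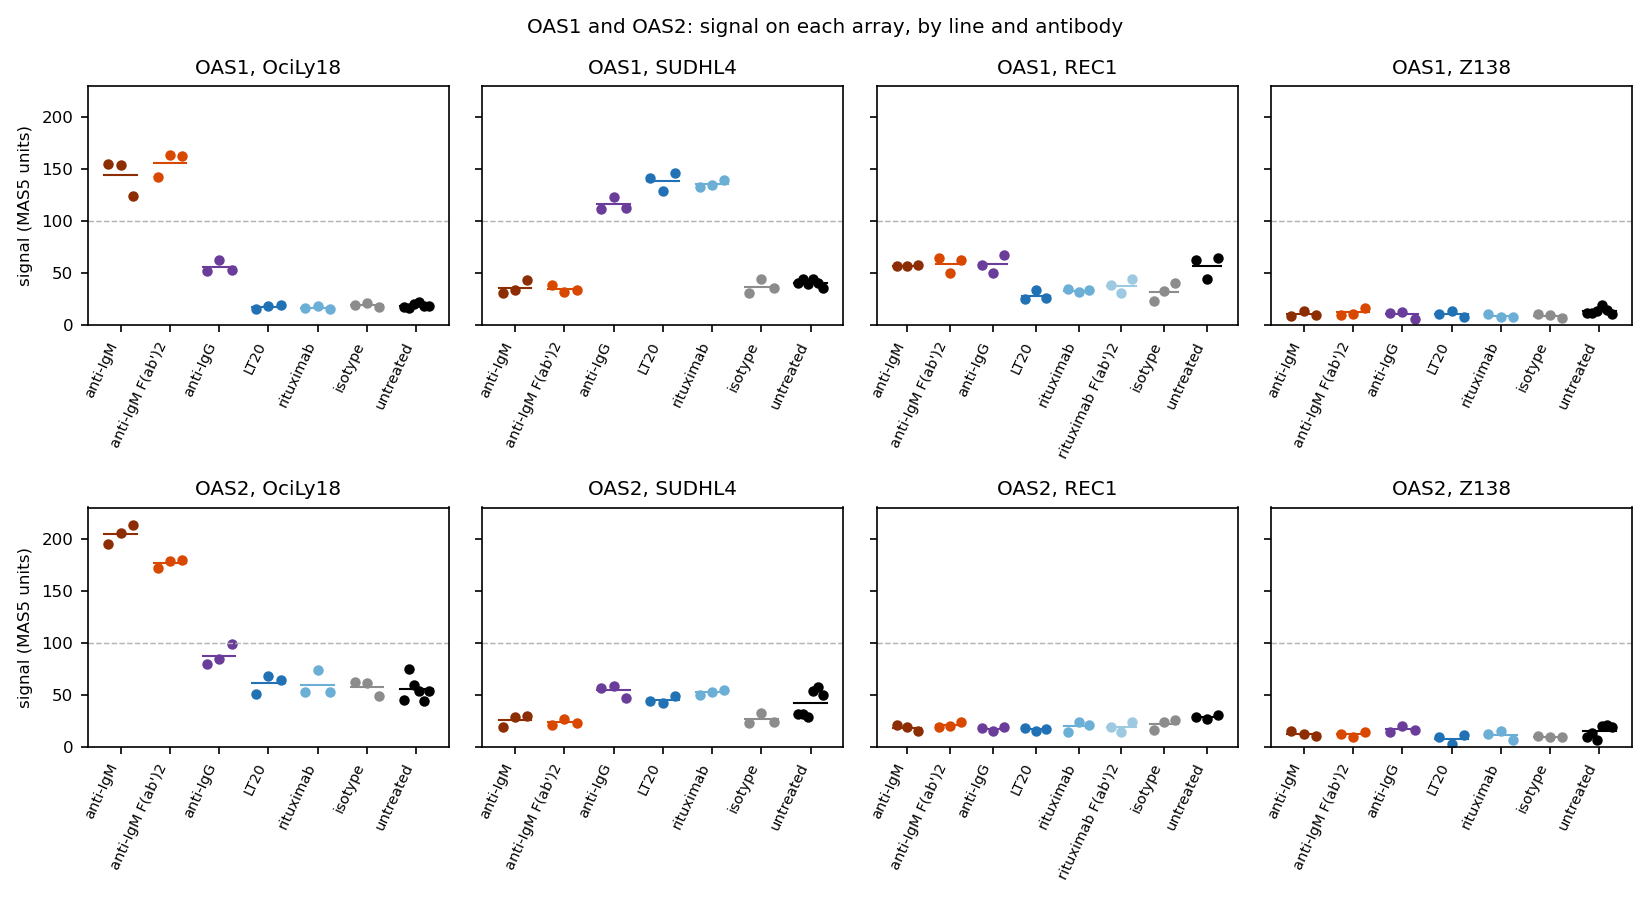
Signal on each array (points, vertical axis, MAS5 units) of OAS1 (top) and OAS2 (bottom) in the 4 lines by antibody, untreated cells at the right, with group means as short lines and a dashed line at 100. OAS1 lies above 100 with anti-IgM and its fragment in OciLy18 and with anti-IgG, LT20 and rituximab in SUDHL4, and OAS2 only with anti-IgM and its fragment in OciLy18.

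In SUDHL4, OAS1 rose with anti-IgG, LT20 and rituximab. Its signal was 112, 124 and 113 with anti-IgG, 141, 129 and 146 with LT20 and 132, 135 and 140 with rituximab. It was 31.4, 33.5 and 43.1 with anti-IgM and 30.8, 44.6 and 35.9 with the isotype antibody, against 35.5, 40.4 and 44.7 for the lowest, median and highest of the 6 untreated arrays. The anti-IgG, LT20 and rituximab arrays were all above the untreated ones, whereas the others overlapped with them. The fold increase was 2.89 with anti-IgG (adjusted p = 1.69e-09), 3.37 with LT20 (adjusted p = 2.16e-10) and 3.29 with rituximab (adjusted p = 3.37e-10) in limma. A second probe set of OAS1 rose by 1.38 and 1.30 on the log2 scale with LT20 and rituximab and was not called.

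TRIM22 fell in SUDHL4 with the same 3 antibodies. It read 238, 304 and 223 with anti-IgG, 267, 197 and 229 with LT20 and 320, 281 and 264 with rituximab, against 608, 695 and 846 for the lowest, median and highest untreated arrays. The ranges did not overlap, and the fold decrease was 3.00 with anti-IgG (adjusted p = 1.01e-11), 2.77 with LT20 (adjusted p = 5.88e-11) and 2.21 with rituximab (adjusted p = 5.54e-09) in limma. EIF2AK2 read 128, 134 and 117 with anti-IgG, against 283, 314 and 271 in untreated replicates 4 to 6, its reference. It fell 2.29-fold (adjusted p = 1.23e-10 in limma), a call lost with the other triplicate (log2 change -0.80) or all 6 untreated arrays (-0.998) as reference. Untreated replicates 1 to 3 read 226, 222 and 214. With the other triplicate as reference BST2 (-1.04) and PSMB9 (-1.56) were called lower with anti-IgG, and EIF2AK2 (-1.19) with LT20. The counts in SUDHL4 were thus 1 member higher and 2 lower of 16 with anti-IgG (2.88% and 4.39% of all genes), 1 and 1 with LT20 (2.05% and 3.78%) and 1 and 1 with rituximab (2.34% and 2.69%). With anti-IgM, its fragment and the isotype antibody 0 of the 16 tested members were called in limma, with 5, 7 and 0 at an unadjusted p below 0.05, against 25.2%, 39.1% and 3.15% of all genes. Of all genes 0.0139%, 0.153% and 0% rose and 0%, 0.0975% and 0% fell in these comparisons. The remaining members lay between -0.86 and 0.74 with the 3 active antibodies, at the ends SP110 with LT20 and SP100 with rituximab.

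In Z138, 2 of the 21 tested members fell with anti-IgG (2.51% of all genes), SAMD9 and SAMD9L, and 0 rose (2.99%). SAMD9 read 78.3, 68.8 and 82.8 with anti-IgG, against 139, 159 and 179 in untreated replicates 4 to 6. SAMD9L read 46.8, 42.5 and 51.4, against 126, 124 and 117 in these replicates. The untreated triplicates themselves differed for SAMD9L, which read 58.3, 52.5 and 73.0 in replicates 1 to 3 and was 2.01-fold higher in replicates 4 to 6 (log2 difference 1.01 ± 0.14, SE, adjusted p = 8.87e-06 in limma), where 0.723% of all genes were higher and 0.158% lower. Of the members, 1 was higher and 0 lower between these triplicates in Z138, and 0 were called in OciLy18 (0.36% of all genes higher, 0.206% lower) and SUDHL4 (1.21% and 0.557%), with 10 members in each at an unadjusted p below 0.05 in limma, against 45.8% and 54.9% of all genes. With replicates 1 to 3 as reference the log2 changes were -0.52 for SAMD9 and -0.38 for SAMD9L, and neither was called. SAMD9 was also not called when untreated replicate 6 (-0.96) or anti-IgG replicate 2 (-0.97) was left out. With anti-IgM, its fragment, LT20, rituximab and the isotype antibody 0 of the 21 members were called in limma, with 15, 16, 2, 4 and 0 at an unadjusted p below 0.05, against 50.2%, 56.9%, 14.9%, 16.3% and 7.79% of all genes. Of all genes 1.95%, 2.46%, 0.132%, 0.105% and 0% rose and 1%, 2.22%, 0.0132%, 0% and 0% fell. TRIM22 had a log2 change of -0.90 with anti-IgG and SAMD9L of -1.06 with the anti-IgM fragment, where its means stayed below 100 in both groups. Other members with an adjusted p below 0.05 in limma with anti-IgG did not pass 2-fold. Those lower included SP110 (-0.97), ISG20 (-0.62) and IRF7 (-0.59), and IRF2 (0.26) alone was higher. With untreated replicates 4 to 6 as reference SAMD9L was called lower with anti-IgM (-1.74), its fragment (-2.07), LT20 (-1.10) and rituximab (-1.03), and SAMD9 (-1.16) and BST2 (-1.24) with the fragment. With replicates 1 to 3 as reference MX2 (-1.29), TRIM22 (-1.05) and SP110 (-1.41) were called lower with anti-IgG.

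The difference in response between lines was tested in 1 limma model of all 96 arrays, with 28 members tested. With anti-IgM, 12 members responded lower in REC1 than in OciLy18 and 9 lower in REC1 than in Z138 (6.83% and 8.14% of all genes), none responded higher (3.03% and 3.94%), and the median difference over the tested members was -0.85 and -0.60 on the log2 scale, against -0.06 and -0.14 over all genes. Such a difference was tested where a gene passed a signal of 100 in 1 line, so that it can rest on dim signals in the other. Of the 12 members, 7 had a compared group above 100 in both lines, namely TRIM22, SAMD9, SP110, SP100, IRF7, PSMB8 and MX2. MX1, SAMD9L and IFITM2 had none in OciLy18 and OAS1 and OAS2 none in REC1. IFITM2 was not called in REC1, and its difference rests on OciLy18 arrays of 21.9, 20.4 and 28.6 with anti-IgM, against 22.0, 8.13 and 2.86 in untreated cells. IRF7 and SP100 were called with anti-IgM in neither REC1 nor OciLy18. IRF7 had log2 changes of -0.67 in REC1 and 0.78 in OciLy18, and SP100 one of -0.95 in REC1. Of the 9 members against Z138, 7 passed 100 in both lines, and MX1 and SAMD9L did so in REC1 only. TRIM22, SAMD9, SP110 and PSMB8 passed it in both lines of both comparisons, which share the REC1 arrays.

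In Z138 minus OciLy18, OAS1 and OAS2 responded lower to anti-IgM (2 members, 1.42% of all genes; higher 0, 1.05%), both below 100 in Z138. With anti-IgG, TRIM22 responded lower in SUDHL4 than in OciLy18 (1 member, 3.55%; higher 0, 1.97%) and was above 100 in both. OAS1 and IRF7 were called higher in SUDHL4 than in Z138 (2 members, 2.52%; lower 0, 3.64%), but OAS1 was below 100 in Z138 and IRF7 in SUDHL4. Of 4 members called lower in Z138 than in OciLy18 (1.99%; higher 0, 1.84%), IRF7 and SP110 were above 100 in both lines, IFIT5 in OciLy18 only and SAMD9L in Z138 only. With LT20, 7 members were called lower in REC1 than in SUDHL4 (2.99%; higher 0, 4.21%), of which SP100 alone was above 100 in both lines (difference -1.04). SP100 was called with LT20 in neither line, its log2 changes being -0.36 in REC1 and 0.68 in SUDHL4. MX1, MX2, SAMD9, SAMD9L and IRF1 were dim in SUDHL4 and OAS1 was dim in REC1, so that a response in these lines was not measured above the limit. TRIM22 was not among them, its log2 changes with LT20 being -2.10 in REC1 and -1.47 in SUDHL4.

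Genes of the same pathway outside the 44 members were examined in a list of 44 other interferon-stimulated genes and in a list of 32 interferons, receptors and signalling genes. Both lists were also chosen with earlier results of these data known. Of 16 tested genes of the first list in REC1, 2 rose and 8 fell with anti-IgM, 3 and 7 with its fragment, 1 and 7 with anti-IgG, and 0 and 1 with LT20. The shares of all genes that rose and fell were 4.96% and 8.01% with anti-IgM, 6.02% and 8.53% with its fragment, 3.97% and 7.23% with anti-IgG and 2.51% and 2.96% with LT20. CXCL10, a chemokine that draws in T cells, averaged 67.4 with anti-IgM and 443 in untreated REC1, a fold decrease of 6.60 (adjusted p = 9.7e-16 in limma). NMI, an interferon-inducible protein, averaged 162 against 479, SP140, a relative of SP110, 98.1 against 442, and TRIM25, which activates the sensor RIG-I, 99.6 against 269, and all 3 passed the test. CASP1, CASP4 and PARP10 fell as well, while PARP9, which works with the ubiquitin ligase DTX3L, averaged 159 with anti-IgM and 51.9 in untreated REC1 and rose (adjusted p = 1.27e-08 in limma). PARP9 and DTX3L also rose in OciLy18 with anti-IgM, at log2 changes of 1.16 and 1.11, the only 2 called of 15 tested genes of this list there, where 2.37% of all genes rose. Of 19 tested signalling genes in REC1, 2 rose and 3 fell with anti-IgM, against the same 4.96% and 8.01% of all genes. STAT3 averaged 699 with anti-IgM and 339 in untreated cells and IRF4 998 and 401, and both rose, while TLR7, the endosomal sensor of single-stranded RNA, averaged 10.2 with anti-IgM and 195 in untreated cells. TLR7 fell also with LT20 in REC1 (log2 change -1.95) and with anti-IgG in Z138 (-1.97), and STAT3 rose with anti-IgG in SUDHL4 (1.62), where 2 of 17 tested signalling genes rose and 2 fell (2.88% and 4.39% of all genes).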

How the data were processed

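Expression was measured on HG-U133 Plus 2.0 arrays, 96 in all. Per the labels and the study's methods, the authors made the deposited signal intensities with MAS5 in GCOS; total signal was nearly equal on all arrays, and the table gives no detection calls. Correlations between arrays of a group were 0.9756 or more, and no arrays were identical. Another deposited file holds the authors' group means and change factors (fold) and was not used. Of 54675 probe sets, 41097 had 1 gene symbol in the platform annotation, 1801 several and 11777 none, and only the first were used. Each gene was represented by the probe set with the highest mean signal.

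Signals below 1 were set to 1 and log2 transformed. Fits used limma 3.58.1 (lmFit, eBayes with trend) in R 4.3.3, 1 fit per line, 1 for untreated arrays and 1 for all arrays. Probe sets with no group mean above 100 (no line mean, for untreated cells) were left out, and p-values were adjusted by Benjamini-Hochberg over all probe sets tested. A gene was called at an adjusted p below 0.05, more than 2-fold and a mean above 100 in a compared group. Treatments were compared with untreated replicates 1 to 3, and anti-IgG in SUDHL4, OciLy18 and Z138 with replicates 4 to 6. Promoter letters were searched with Python 3.11.15 and pandas 2.3.3. Scripts were tested on simulated data.

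The members and lists were chosen with earlier results of these data known. Values per array were given for at most 12 members called after treatment, by the number of comparisons called, and for the 8 with the largest called gap between untreated lines; DDX58 is listed under its older symbol. Alternatives were 16 added to each signal, quantile normalization, no filter, a limit of 200, no trend, a replicate block, other references, any probe set, the methods' rule without a test, and leaving out each array. The direct comparisons in REC1 were added after the data were seen.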

Additional observations from a re-analysis of the deposited data

Results flagged for a closer look

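Responses that differed between lines by the limma interaction contrast (adjusted p below 0.05, more than 2-fold, mean above 100) are given as log2 differences. With anti-IgM, REC1 minus OciLy18 was -3.97 for SAMD9, -2.999 for OAS1, -2.43 for OAS2, -2.21 for MX1, -2.17 for SAMD9L, -2.11 for TRIM22, -2.03 for SP110, -1.49 for IFITM2, -1.48 for SP100, -1.44 for IRF7, -1.41 for PSMB8 and -1.08 for MX2. MX1, SAMD9L and IFITM2 were below a signal of 100 in the OciLy18 groups compared, and OAS1 and OAS2 in those of REC1.

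REC1 minus Z138 with anti-IgM was -3.91 for SAMD9, -2.56 for TRIM22, -1.86 for SAMD9L, -1.64 for PSMB8, -1.59 for SP110, -1.32 for EIF2AK2, -1.13 for BST2, -1.05 for MX1 and -1.02 for PSMB9, where MX1 and SAMD9L were below 100 in Z138. Z138 minus OciLy18 was -3.22 for OAS1 and -1.41 for OAS2, both below a signal of 100 in Z138.

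With anti-IgG, SUDHL4 minus OciLy18 was -1.46 for TRIM22. SUDHL4 minus Z138 was 2.08 for OAS1, dim in Z138, and 1.44 for IRF7, dim in SUDHL4. Z138 minus OciLy18 was -1.37 for IRF7, -1.27 for SP110, -1.17 for IFIT5, dim in Z138, and -1.13 for SAMD9L, dim in OciLy18. The SAMD9L value rests on untreated replicates 4 to 6 of Z138, which read higher than replicates 1 to 3.

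With LT20, REC1 minus SUDHL4 was -2.75 for OAS1, -2.17 for SAMD9, -2.10 for SAMD9L, -1.73 for MX1, -1.48 for MX2, -1.35 for IRF1 and -1.04 for SP100, of which SP100 alone was above 100 in both lines. SP100 was called with LT20 in neither line. For a gene in a line with 6 untreated arrays, 48 such sets of values were examined, and 0 held an array far from the others.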

How the results depend on the processing

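No result reversed under any alternative. Counts are of members called. They are given without the share of all genes under the same alternative, and so show only how the calls depend on the processing. With 16 added to each signal there were 4 for LT20 in REC1, 1 for anti-IgG in Z138 and 2 for the anti-IgG response in Z138 minus OciLy18. After quantile normalization the anti-IgG response gave 2 in SUDHL4 minus OciLy18 and 4 in SUDHL4 minus Z138. A signal limit of 200 gave 1 each for LT20 and rituximab in SUDHL4. In REC1 it gave 5 for anti-IgM, 6 for its fragment, 5 for anti-IgG, 3 for LT20 and 1 each for rituximab and its fragment. It gave 1 for anti-IgM and 0 for its fragment in OciLy18, 0 for anti-IgG in Z138 and 8 in untreated REC1 minus SUDHL4. For responses it gave 7 with anti-IgM in REC1 minus OciLy18, 1 in Z138 minus OciLy18, 1 with anti-IgG in SUDHL4 minus Z138, 2 in Z138 minus OciLy18 and 2 with LT20. Fewer genes pass this limit.

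With the other untreated triplicate as reference there were 4 for anti-IgM and 5 for its fragment in OciLy18, and 1, 3, 1 and 1 for anti-IgM, its fragment, LT20 and rituximab in Z138. With all 6 untreated arrays there were 4 for the anti-IgM fragment in OciLy18, and 1, 2 and 1 for anti-IgM, its fragment and anti-IgG in Z138. Against isotype-treated arrays REC1 gave 6 for anti-IgM, 7 for its fragment, 6 for anti-IgG, 1 for LT20, 0 for rituximab and 0 for its fragment. With all untreated arrays the response gave 4 with anti-IgM in Z138 minus OciLy18, and 4 and 5 with anti-IgG in SUDHL4 minus OciLy18 and SUDHL4 minus Z138. The methods' rule without a test gave 1 for the isotype antibody in REC1, SAMD9. The cause was not tested.

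Leaving out 1 array gave 4 to 9 members for LT20 in REC1 (4 without untreated replicate 3), 0 to 1 for the isotype antibody in REC1 (1 without untreated replicate 2 or isotype replicate 3), 0 to 1 for the anti-IgM fragment in Z138 (1 without untreated replicate 1 or fragment replicate 3), 1 to 3 for anti-IgG in Z138 (1 without untreated replicate 6), 1 to 2 for the anti-IgG response in SUDHL4 minus OciLy18, 2 to 3 in SUDHL4 minus Z138, 3 to 5 in Z138 minus OciLy18, and 2 to 3 with anti-IgM in Z138 minus OciLy18. It gave 10 to 12 for anti-IgM, 10 to 13 for its fragment and 9 to 11 for anti-IgG in REC1. Whether replicate numbers pair the arrays is not stated. After group means were taken off, same-numbered arrays had mean correlations of -0.02 to 0.02, while single pairs in REC1 lay between -0.52 and 0.39. A mean over all groups cannot exclude pairing between some of them. With the replicate block the 22 counts stayed within 1.5 times, for example 10 for anti-IgM in REC1.

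Of single calls, 12 of 119 were lost with 16 added, 26 of 55 against isotype-treated arrays and 20 of 715 on leaving out 1 array. Signals near the floor of 1 limit the folds of SAMD9, IFIT5 and IFI6, and 15 members below 100 in every line were not tested.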
